A study of Homo sapiens with 40 samples.

Results

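The mRNAs described here encode deadenylases or their subunits: the catalytic subunits of the Ccr4-Not complex (CNOT6, CNOT6L, CNOT7 and CNOT8), the Pan2-Pan3 pair (PAN2 and PAN3) and the poly(A)-specific ribonuclease PARN. They were chosen by gene symbol, 7 of 55765 symbols counted, and were followed through all 12 groups of the study. The libraries were made from HEK293, a cell line derived from human embryonic kidney. In the RNA immunoprecipitation experiment (RIP), cells without siRNA gave total RNA and RNA recovered with antibodies against the endogenous helicases eIF4A1, eIF4A2 or DDX6 (IP, n = 3 in each group). In the gradient experiment, cells received control or CNOT1 siRNA. Input RNA, subpolysomal fractions 1 to 5 and polysomal fractions 6 to 11 of a sucrose gradient were sequenced from them (n = 4 in each group). In the TNRC6 experiment, total RNA came from cells with control siRNA or with siRNAs against TNRC6A and TNRC6B together (n = 2 in each group).

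Deadenylases remove the poly(A) tail of an mRNA, the step that opens most cytoplasmic mRNA decay, and Pan2-Pan3 is thought to begin what Ccr4-Not completes. Within Ccr4-Not, CNOT6 and CNOT6L are alternative exonuclease subunits of the EEP type, CNOT7 and CNOT8 are alternative subunits of the DEDD type, and CNOT1 is the scaffold that holds them. TNRC6 proteins (GW182) bring both complexes to miRNA targets, and eIF4A2 and DDX6 are helicases reported as partners of CNOT1.

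On GRCh37 (GENCODE release 44) CNOT6 lay at chr5:179921379-180005358, plus strand, CNOT6L at chr4:78634541-78740769, minus strand, and CNOT7 at chr8:17082475-17104387, minus strand, with an antisense gene without a symbol. CNOT8 was at chr5:154237113-154256352, plus strand, where FAXDC2 overlaps it on the opposite strand. PAN2 was at chr12:56710007-56727837, minus strand, where CNPY2-AS1 overlaps it on the opposite strand. PAN3 was at chr13:28712643-28869472, plus strand, and PARN at chr16:14529557-14726585, minus strand. Counts were made per gene from strand-specific libraries, and the strand option of the counter was not stated, so reads of CNOT7, CNOT8 and PAN2 could in part belong to those partners. Between CNOT6 and CNOT6L, and between CNOT7 and CNOT8, the transcripts shared 0 stretches of 40 identical bases.

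The mRNAs differed most in their 3′UTRs. The 3′UTR of CNOT6L was 7044 nt long, that of CNOT7 5754 nt and that of CNOT6 4158 nt, at the 97.1th, 95.1th and 89.7th percentile of 18922 coding mRNAs with a median of 1063 nt. PAN3 carried 2813 nt, CNOT8 1353 nt, PARN 1016 nt and PAN2 673 nt. Because TNRC6 proteins act through miRNAs, the 3′UTRs were searched on the mRNA strand for the letters that pair with the seed (bases 2 to 8) of 4 miRNAs of the miR-17-92 cluster and of let-7a-5p. Those letters were GCACTTT for miR-17-5p, GCACCTT for miR-18a-5p, TTTGCAC for miR-19a-3p, GTGCAAT for miR-92a-3p and CTACCTC for let-7a-5p. CNOT6 held 4 matches, CNOT7 3 and CNOT6L 2, whereas CNOT8, PAN2, PAN3 and PARN held 0. In CNOT7 the match for miR-17-5p overlapped 1 of its 2 matches for miR-19a-3p. Of all 3′UTRs, 41.1% held at least 1 of these matches, 21.2% for miR-17-5p, 8.82% for miR-18a-5p and 13.5% for miR-19a-3p. These shares were not matched for length, and CNOT6, CNOT7 and CNOT6L have the longest 3′UTRs of the members. A match of letters is a description and not evidence of a working site. miRNAs themselves were not measured by poly(A) libraries, and the host transcript MIR17HG had a median of 20.3 CPM (read counts scaled to a common library size) over the libraries, from 3.06 to 289.

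The 3 miRNAs with a match in these mRNAs are shown first (mature sequences from RefSeq with GRCh38.p14, seed in capitals), and below them the stretches of the CNOT6 and CNOT6L 3′UTRs that carry the matches (GRCh37, 5′ to 3′ on the mRNA strand, matched letters in capitals). They are shown because CNOT6 and CNOT6L are the paralogues that moved in opposite directions in the gradient experiment and share match letters.
miR-17-5p: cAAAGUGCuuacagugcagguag
miR-18a-5p: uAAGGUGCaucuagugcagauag
miR-19a-3p: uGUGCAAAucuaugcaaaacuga
CNOT6 for miR-17-5p at chr5:180004229-180004250, plus strand: acttgggattattaGCACTTTc
CNOT6 for miR-18a-5p at chr5:180001191-180001212, plus strand: caggaggtagtcaaGCACCTTc
CNOT6 for miR-19a-3p at chr5:180001405-180001426, plus strand: cagggattggtgtgTTTGCACc
CNOT6 for miR-19a-3p at chr5:180001801-180001822, plus strand: ttctctgctcatgaTTTGCACt
CNOT6L for miR-17-5p at chr4:78640144-78640165, minus strand: tttaaacttttcatGCACTTTa
CNOT6L for miR-19a-3p at chr4:78641095-78641116, minus strand: ggattccaaagtcaTTTGCACa
Both CNOT6L stretches end in an A opposite the first base of the miRNA, and none of those in CNOT6 does.

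Each library held 15.4 to 46 M counts (M, mega), and a member had between 338 and 13156 counts in a library. Levels are given as CPM of the library total after adjustment by the trimmed mean of M values (TMM). The cell line was checked against markers: NEFM, NEFL and EYA1 had medians of 2873, 723 and 15.3 CPM, whereas PAX2 had 0.307. The markers of other cell types were at or near 0, with medians of 0 CPM for PTPRC and COL1A2 and 0.0752 for ALB. CNOT1 siRNA lowered CNOT1 in input RNA from 672 ± 35.7 CPM to 39.6 ± 1.99 (SD, n = 4 each). In polysomal RNA 2 libraries went against their labels. The library labelled control siRNA polysomal replicate 3 had 28.3 CPM of CNOT1, where the other 3 of its group had 470 to 501. Conversely, that labelled CNOT1 siRNA polysomal replicate 3 had 631 CPM, where the others had at most 31.7. Both were kept as labelled in the main test, and for members called in the gradient experiment the values without them are given as well. Replicates were not stated to be separate cultures, so p-values measure the spread between these libraries. In bulk RNA, fewer cells with a transcript and fewer copies per cell cannot be told apart.

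To place the members beside each other, levels were divided by the length of the union of their exons. In RIP total RNA, CNOT6 was the highest at 24.9 ± 0.886 CPM per kilobase (SD, n = 3). CNOT8 at 16.2 and CNOT7 at 15.8 CPM per kilobase followed and overlapped. PAN3 at 8.01, CNOT6L at 7.40 and PAN2 at 6.08 overlapped with their neighbours, and PARN came last at 4.29. Input RNA of control siRNA cells gave a similar order, from CNOT6 at 30.4 through CNOT7 at 17.3 and CNOT8 at 17.2 to PARN at 4.29 and PAN2 at 4.25 CPM per kilobase. With CNOT1 siRNA the order of the means in input RNA was another one: CNOT8 came first at 22.1 and CNOT6 next at 18.0, and CNOT6L at 13.5 stood above CNOT7 at 11.8 CPM per kilobase with overlapping libraries. Parts of this order rest on the length used. Divided by the longest annotated transcript, PARN stood at 13.9 CPM per kilobase in RIP total RNA, the fourth of the members, and CNOT6 at 26.1 overlapped with CNOT7 at 25.1. By that length CNOT7 at 18.7 stood above CNOT6L at 14.2 CPM per kilobase in CNOT1 siRNA input, without overlap, while CNOT8 was again first at 32.0.

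**Figure D1:**
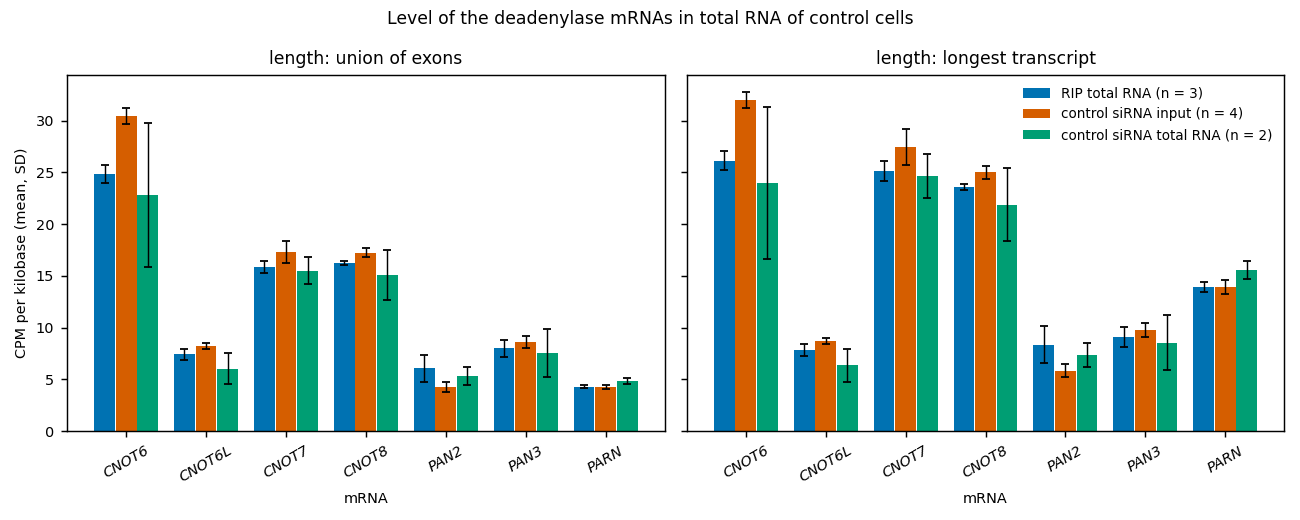
Bars give the mean level of each deadenylase mRNA in CPM per kilobase and error bars the SD, in RIP total RNA (n = 3), control siRNA input (n = 4) and control siRNA total RNA of the TNRC6 experiment (n = 2). The left panel divides by the union of exons and the right panel by the longest annotated transcript. CNOT6, CNOT7 and CNOT8 are the tallest in both panels, and PARN, with 4.29 CPM per kilobase in RIP total RNA on the left, is the fourth in each group on the right.

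The first comparison asked which deadenylase mRNAs were recovered with each helicase. CNOT6, CNOT8 and PAN3 mRNA were higher in every IP than in total RNA, 1.33- to 1.91-fold, and CNOT6L and PARN mRNA were lower in every IP, at 0.511 to 0.708 of total RNA. PAN2 was called higher in the eIF4A2 IP, and CNOT7 was not called. In the eIF4A1 IP 3 of 7 members were higher and 2 lower by the edgeR quasi-likelihood test at a false discovery rate (FDR) of 0.05. Of 17474 genes tested 52.6% were called there, 26.1% higher and 26.5% lower. In the eIF4A2 IP 4 members were higher and 2 lower, where 50.3% of genes were called, 24.5% higher and 25.8% lower. In the DDX6 IP 3 were higher and 2 lower, where 46% of genes were called, 22.7% higher and 23.3% lower. The median log2 fold change of the members was 0.45, 0.42 and 0.55 in the eIF4A1, eIF4A2 and DDX6 IPs, beside 0.04, 0.01 and 0.01 over all genes tested. The IPs were all set against the same total RNA libraries, so their values are given side by side and are not independent of each other. No IP with a control antibody was used here, so that recovery is relative to total RNA only.

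CNOT6, the EEP subunit highest per kilobase, had 157, 165 and 168 CPM in total RNA. It had 208, 236 and 255 CPM in the eIF4A1 IP, 193, 249 and 212 in the eIF4A2 IP, and 252, 260 and 280 in the DDX6 IP. Every IP library was above every total RNA library. The log2 fold change was 0.51 with eIF4A1 (SE 0.13, edgeR FDR = 0.0061), 0.42 with eIF4A2 (FDR = 0.02) and 0.69 with DDX6 (FDR = 0.0011). The call with eIF4A2 was lost without total RNA replicate 1 or without eIF4A2 IP replicate 2.

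CNOT6L, its paralogue, went the other way. Total RNA had 65.0, 67.9 and 74.9 CPM, against 45.7, 36.8 and 51.2 in the eIF4A1 IP, 46.4, 43.5 and 48.8 in the eIF4A2 IP and 45.2, 38.8 and 49.5 in the DDX6 IP. All IP libraries lay below all total RNA libraries. The log2 fold change of CNOT6L was -0.64 with eIF4A1 (SE 0.15, edgeR FDR = 0.0025), -0.58 with eIF4A2 (FDR = 0.0046) and -0.64 with DDX6 (FDR = 0.0031). Per library, the ratio of CNOT6L to CNOT6 counts, with no adjustment for length, was 0.424 ± 0.0192 in total RNA, 0.192 ± 0.0331 in the eIF4A1 IP, 0.215 ± 0.0355 in the eIF4A2 IP and 0.169 ± 0.0166 in the DDX6 IP (SD, n = 3 each).

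CNOT8, one of the DEDD subunits, had 64.4, 63.9 and 62.9 CPM in total RNA. It had 97.6, 98.5 and 98.6 CPM in the eIF4A1 IP, 104, 132 and 109 in the eIF4A2 IP and 96.3, 105 and 93.3 in the DDX6 IP. The groups did not overlap with total RNA. The rise was 0.62 with eIF4A1 (SE 0.12, edgeR FDR = 0.00086), 0.85 with eIF4A2 (FDR = 8.1e-05) and 0.62 with DDX6 (FDR = 0.0012) on the log2 scale.

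CNOT7, which pairs with CNOT8 as its paralogue, was spread more widely. Total RNA had 167, 180 and 172 CPM, the eIF4A1 IP 129, 237 and 171, the eIF4A2 IP 123, 180 and 128, and the DDX6 IP 205, 327 and 231. Replicate 2 was the highest in all 4 groups, and all DDX6 IP libraries were above total RNA. The log2 fold change was 0.05 with eIF4A1 (edgeR FDR = 0.87), -0.27 with eIF4A2 (FDR = 0.35) and 0.55 with DDX6 (SE 0.23, FDR = 0.063), none of which passed. With the replicate number as a block, since same-numbered RIP libraries varied together, the DDX6 difference passed (FDR = 0.0039). The total RNA library numbered 3 here carries that number in its title and a 2 in its description, so the blocked fits and the same-number ratios to total RNA rest on the title. It also passed when only the compared libraries were fitted.

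PAN3, the adapter subunit that binds poly(A)-binding protein and TNRC6, had 47.7, 48.1 and 56.9 CPM in total RNA. It had 96.9, 75.2 and 91.8 CPM in the eIF4A1 IP, 96.3, 95.4 and 100 in the eIF4A2 IP and 82.5, 66.9 and 81.6 in the DDX6 IP. All IP libraries were above total RNA, by 0.79 (SE 0.14, edgeR FDR = 0.00042), 0.94 (FDR = 0.00012) and 0.60 (FDR = 0.0037) on the log2 scale. For eIF4A2 this was a fold of 1.91.

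PAN2, the catalytic subunit, had 51.7, 33.7 and 47.4 CPM in total RNA. It had 85.0, 39.7 and 56.2 CPM in the eIF4A1 IP, 93.4, 60.9 and 100 in the eIF4A2 IP and 57.0, 33.6 and 47.8 in the DDX6 IP. Replicate 2 was the lowest in all 4 groups, and only the eIF4A2 IP stood wholly above total RNA. PAN2 rose by 0.94 with eIF4A2 (SE 0.28, edgeR FDR = 0.014), a call lost without total RNA replicate 2. With eIF4A1 the log2 fold change was 0.45 (FDR = 0.2), which passed with the replicate block (FDR = 0.0098), and with DDX6 it was 0.06 (FDR = 0.88). Within a replicate number, the eIF4A2 IP had 1.81, 1.81 and 2.11 times the PAN2 of total RNA and the DDX6 IP 1.10, 0.999 and 1.01 times.

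PARN, a deadenylase outside both complexes, had 62.6, 60.8 and 58.3 CPM in total RNA. It had 28.6, 32.4 and 34.7 CPM in the eIF4A1 IP, 30.1, 28.7 and 33.8 in the eIF4A2 IP and 43.3, 42.0 and 43.3 in the DDX6 IP. No IP library reached total RNA, and no library of either eIF4A IP reached the DDX6 IP. The log2 fold change was -0.93 with eIF4A1 (SE 0.12, edgeR FDR = 3.7e-05), -0.97 with eIF4A2 (FDR = 2.5e-05) and -0.50 with DDX6 (FDR = 0.0041).

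**Figure D2:**
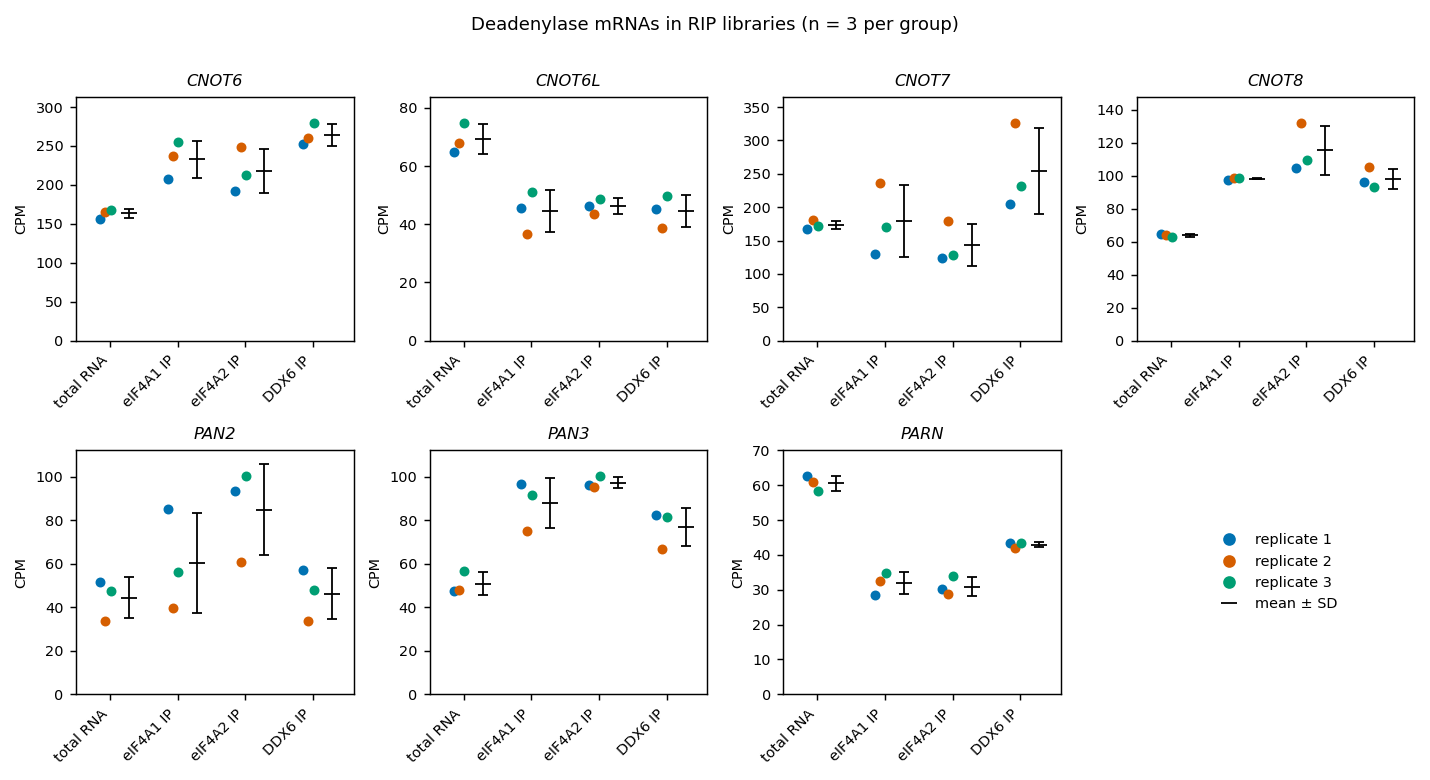
Each panel shows 1 deadenylase mRNA, with CPM on the vertical axis (from 0) and total RNA and the 3 IPs on the horizontal axis. Points are libraries, coloured by replicate number, and black bars give mean ± SD (n = 3). PARN and CNOT6L lie below total RNA in all IPs, PAN3, CNOT8 and CNOT6 above, and replicate 2 is the lowest library of every group in PAN2 and the highest in CNOT7.

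The IPs were then compared with each other, which tests the difference in recovery itself. Between eIF4A2 and DDX6, 21.1% of genes were called, 9.82% higher and 11.3% lower with eIF4A2, and so were 3 of 7 members, 1 higher and 2 lower. CNOT7 was lower in the eIF4A2 IP than in the DDX6 IP by a log2 fold change of -0.82 (SE 0.23, edgeR FDR = 0.024), and within replicate numbers the eIF4A2 IP had 0.602, 0.550 and 0.554 of the DDX6 IP. PAN2 was higher with eIF4A2 by 0.88 (SE 0.28, FDR = 0.043), at 1.64, 1.81 and 2.09 times the DDX6 IP. PARN was lower by -0.47 (SE 0.12, FDR = 0.016), at 0.696, 0.684 and 0.781. For these mRNAs, and for CNOT6 and PAN3 as well, the eIF4A2 and DDX6 libraries did not overlap. The share of all genes without overlap was not determined, here or in the other comparisons. CNOT6 (log2 fold change -0.28, FDR = 0.16) and PAN3 (0.34, FDR = 0.099) did not pass, and passed with the replicate block (FDR = 0.046 and 0.017), where 40.5% of genes were called.
All these calls between eIF4A2 and DDX6 were sensitive to single libraries. Without eIF4A2 IP replicate 1 the count fell to 0 of 7. Without eIF4A2 IP replicate 3 or DDX6 IP replicate 2 PARN alone passed, and without DDX6 IP replicate 3 PAN2 was lost.

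Between eIF4A2 and eIF4A1, 1.06% of genes and 0 of 7 members were called. The fitted differences ran from -0.32 for CNOT7 to 0.49 for PAN2 on the log2 scale. With the replicate block PAN2 passed at 0.52 (edgeR FDR = 0.014), where 15.8% of genes were called, and the eIF4A2 IP had 1.10, 1.53 and 1.78 times the PAN2 of the eIF4A1 IP. Between DDX6 and eIF4A1, 0.0916% of genes and 0 members were called. There the replicate block, with 9.9% of genes called, added CNOT7 at 0.52 (FDR = 0.027) and PARN at 0.43 (FDR = 0.021). DESeq2 called PARN at 0.44 (adjusted p = 0.013).

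The gradient experiment asked how these mRNAs responded when CNOT1 was depleted. In input RNA the paralogues of each pair moved in opposite directions after CNOT1 siRNA. CNOT6 and CNOT7 mRNA fell to 0.591 and 0.680 of control, CNOT6L and CNOT8 mRNA rose 1.64- and 1.28-fold, PAN2 mRNA fell to 0.735, and PAN3 and PARN did not pass the test. Of 7 members 2 were higher and 3 lower, where 29% of 16776 genes tested were called, 13.4% higher and 15.6% lower. The median log2 fold change was -0.15 for the members and -0.03 for all genes tested.

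CNOT6 had 202, 193, 202 and 203 CPM with control siRNA and 119, 123, 121 and 110 with CNOT1 siRNA. The groups were far apart, with a log2 fold change of -0.76 (SE 0.18, edgeR FDR = 0.0079, and FDR = 2.7e-06 without both polysomal libraries of replicate 3). CNOT6L had 75.8, 73.4, 79.0 and 78.2 CPM with control siRNA and 127, 122, 137 and 118 with CNOT1 siRNA. Every CNOT1 siRNA library was above every control library, at 1.51 to 1.73 times the control of the same number, and the log2 fold change was 0.72 (SE 0.17, FDR = 0.0077, and 1.1e-06 without both). The ratio of CNOT6L to CNOT6 counts went from 0.383 ± 0.00653 to 1.07 ± 0.0570 (SD, n = 4 each).

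CNOT7 had 187, 189, 176 and 205 CPM with control siRNA and 126, 142, 115 and 131 with CNOT1 siRNA. The libraries did not overlap, and the log2 fold change was -0.56 (SE 0.18, edgeR FDR = 0.023, and 0.00047 without both polysomal libraries). This call was lost without control input replicate 4, CNOT1 siRNA input replicate 1 or CNOT1 siRNA input replicate 3.
CNOT8 had 67.7, 70.2, 66.2 and 67.0 CPM with control siRNA and 88.3, 84.9, 90.0 and 83.9 with CNOT1 siRNA. Again the groups were apart, by 0.36 on the log2 scale (SE 0.13, FDR = 0.036, and 0.0088 without both). The ratio of CNOT8 to CNOT7 counts was 0.359 ± 0.0222 with control siRNA and 0.679 ± 0.0794 with CNOT1 siRNA.

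PAN2 had 28.3, 28.6, 35.6 and 31.4 CPM with control siRNA and 21.4, 21.1, 24.1 and 24.5 with CNOT1 siRNA. It was lower in every library, by -0.44 on the log2 scale (SE 0.16, edgeR FDR = 0.044, and 0.0017 without both polysomal libraries). The calls of PAN2 and CNOT8 were each lost when any 1 input library was left out of the full fit. PAN3 had 51.4, 51.9, 56.7 and 58.7 CPM against 49.5, 46.9, 54.2 and 52.2, which overlapped (log2 fold change -0.11, FDR = 0.5).
PARN had 57.9, 58.2, 63.0 and 62.9 CPM against 52.8, 55.2, 54.8 and 55.5. The PARN libraries did not overlap but the difference was small, -0.15 on the log2 scale (SE 0.10, FDR = 0.24), and it passed when input libraries alone were fitted.

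In subpolysomal RNA, which holds free RNA, ribosomal subunits and monosomes, 2 members were higher and 1 lower after CNOT1 siRNA, where 32.2% of genes were called, 13% higher and 19.1% lower. CPM in a fraction is relative to the total of that fraction. CNOT6L rose from 36.6, 37.1, 28.9 and 30.5 CPM to 49.2, 47.2, 49.6 and 42.5 without overlap (log2 fold change 0.50, edgeR FDR = 0.031, and 8e-05 without both polysomal libraries). In the full fit the call was lost without control subpolysomal replicate 3 or 4, or without CNOT1 siRNA subpolysomal replicate 1, 2 or 3. CNOT8 had 64.4, 66.6, 51.2 and 56.9 CPM against 75.4, 102, 65.8 and 77.5 and rose by 0.42 (FDR = 0.013, and 0.0024 without both), a call lost without CNOT1 siRNA subpolysomal replicate 2.
PAN2 fell from 38.8, 34.8, 38.7 and 36.7 CPM to 21.9, 23.4, 27.3 and 23.8, with no overlap (log2 fold change -0.63, FDR = 0.0056, and 6e-05 without both). This was the largest change of a member in that fraction. CNOT7, which fell in input RNA, had 265, 291, 198 and 222 CPM with control siRNA and 247, 282, 201 and 208 with CNOT1 siRNA in subpolysomal RNA (log2 fold change -0.06, FDR = 0.83). CNOT6 had 176, 172, 138 and 131 CPM against 141, 148, 116 and 119 (log2 fold change -0.24, FDR = 0.34, and 0.052 without both). Each of the 4 CNOT1 siRNA libraries had less CNOT6 than the control of the same number, at most 0.908 times as much, and CNOT6 passed with the replicate block and without both polysomal libraries (FDR = 0.027). For PAN3 and PARN the log2 fold changes were -0.05 and 0.08.

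In polysomal RNA, which holds mRNAs carrying several ribosomes, 0% of genes and 0 members were called by edgeR as labelled, and DESeq2 also called 0. At an unadjusted p under 0.05 there were 433 genes above control and 690 below. Without both polysomal libraries of replicate 3, 31.7% of 17115 genes were called, and so were 4 of 7 members. CNOT6 had 197, 213 and 196 CPM in control replicates 1, 2 and 4 and 120, 105 and 111 with CNOT1 siRNA, and fell by 0.85 on the log2 scale (FDR = 7.1e-06). In the library labelled control siRNA polysomal replicate 3 it had 122 CPM, and in that labelled CNOT1 siRNA polysomal replicate 3 it had 223.
CNOT6L had 68.3, 71.4 and 72.4 CPM in control replicates 1, 2 and 4 against 126, 109 and 112 and rose by 0.71 (FDR = 1.3e-05), with 144 and 81.6 in the libraries labelled control and CNOT1 siRNA replicate 3. CNOT7 had 185, 211 and 196 CPM against 114, 118 and 124 and fell by 0.73 (FDR = 0.00019), with 104 and 182 in those libraries. In CNOT6, CNOT6L and CNOT7 each of those libraries thus lay nearer to the group of the other label.
CNOT8 had 66.8, 80.1 and 77.2 CPM against 93.1, 93.8 and 95.5 and rose by 0.33 (FDR = 0.037), with 98.2 and 74.9 in those libraries. In CNOT8 too each of those libraries lay nearer to the group of the other label. As labelled, with all libraries, the log2 fold changes were -0.38 for CNOT6, 0.27 for CNOT6L, -0.37 for CNOT7 and 0.15 for CNOT8. PAN2 had -0.02 and PAN3 -0.04 as labelled, and -0.27 and -0.08 without both libraries. PARN had 0.07 as labelled and a value near 0 without both, at 0.999 of control.

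**Figure D3:**
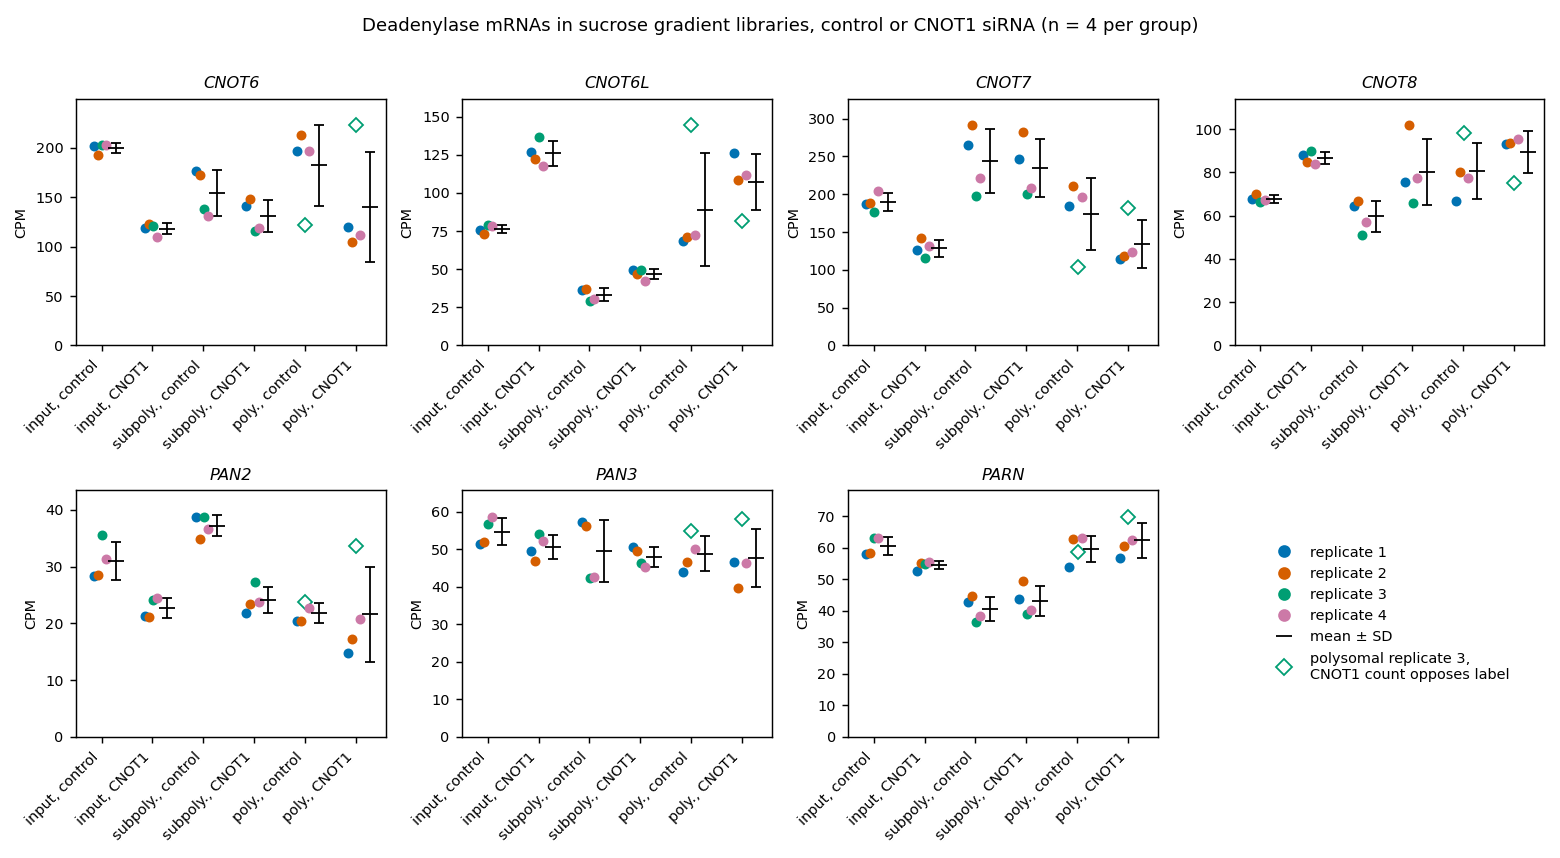
Panels show the deadenylase mRNAs, with CPM on the vertical axis (from 0). Input, subpolysomal and polysomal RNA of control and CNOT1 siRNA cells are on the horizontal axis. Points are libraries coloured by replicate number, black bars give mean ± SD (n = 4), and open diamonds mark replicate 3 of polysomal RNA, where CNOT1 goes against the labels. In CNOT6, CNOT6L, CNOT7 and CNOT8 the diamonds sit nearer to the level of the opposite group.

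Polysomal and subpolysomal RNA were then compared within each siRNA. The log2 polysomal/subpolysomal ratio was taken from libraries of the same number with a pseudocount of 0.5 CPM. The labels do not say that a number marks 1 gradient, and same-numbered subpolysomal and polysomal libraries deviated from their group means with correlations across genes of -0.63 to 0.17 in control cells and -0.31 to -0.25 with CNOT1 siRNA. Both polysomal libraries of replicate 3 were part of those group means, so these correlations cannot decide whether the numbers pair. The tests compared group means and did not use the numbers. In control cells 3 members were more polysomal and 2 more subpolysomal, where 71.7% of genes were called, 34.8% and 37% in these directions, and the median log2 fold change was 0.24 for the members and -0.02 for all genes. CNOT6L was the most polysomal member at every number, with ratios of 0.89, 0.94, 2.30 and 1.24, the third from the doubted library (log2 fold change 1.42, edgeR FDR = 1.2e-07, and 1.10, FDR = 3e-10, without both polysomal libraries of replicate 3). PARN had ratios of 0.33, 0.48, 0.67 and 0.71 (log2 fold change 0.55, FDR = 2e-05, and 0.57, FDR = 8.3e-06, without both). CNOT8 had 0.05, 0.27, 0.93 and 0.44 (0.43, FDR = 0.0038, and 0.33, FDR = 0.011, without both).

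PAN2 had the most subpolysomal fitted value, with ratios of -0.91, -0.76, -0.69 and -0.68 in control cells (log2 fold change -0.77, edgeR FDR = 0.00021, and -0.80, FDR = 1.7e-06, without both). CNOT7 was also more subpolysomal, with -0.52, -0.46, -0.92 and -0.18 (-0.49, FDR = 0.016, and -0.29, FDR = 0.036, without both), and its call was lost without control subpolysomal replicate 2 or control polysomal replicate 3. CNOT6 had 0.16, 0.30, -0.18 and 0.58 and passed only without both libraries (0.40, FDR = 0.0014, against 0.24, FDR = 0.25). PAN3 was near balance, with -0.38, -0.27, 0.37 and 0.24 (-0.02, FDR = 0.87, and -0.07 without both). The paralogues CNOT7 and CNOT8 were thus called in opposite directions.

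With CNOT1 siRNA 68.8% of genes were called, 34.1% more polysomal and 34.7% more subpolysomal, and of the members 2 were more polysomal and 1 more subpolysomal. CNOT6L had ratios of 1.35, 1.20, 0.71 and 1.39 (log2 fold change 1.18, edgeR FDR = 2e-06, and 1.31, FDR = 1.6e-11, without both). PARN had 0.37, 0.29, 0.83 and 0.63 (0.53, FDR = 3.5e-05, and 0.48, FDR = 6.7e-05, without both). CNOT7 had -1.11, -1.26, -0.14 and -0.75 (-0.80, FDR = 0.0003, and -0.97, FDR = 3.2e-07, without both). These calls had the direction found in control cells.
PAN2 had -0.56, -0.43, 0.30 and -0.20 and passed only without both libraries (-0.44, FDR = 0.0017, against -0.16, FDR = 0.4). CNOT6 had -0.23, -0.50, 0.94 and -0.10, with a log2 fold change of 0.09 (FDR = 0.67) as labelled and -0.22 (FDR = 0.066) without both. CNOT8 had 0.30, -0.12, 0.19 and 0.30 (0.16, FDR = 0.27, and 0.24, FDR = 0.056, without both), and PAN3 -0.11, -0.32, 0.32 and 0.04.

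Whether CNOT1 siRNA changed the distribution was tested as an interaction, the polysomal change less the subpolysomal one. As labelled, 5.66% of genes and 0 members were called, with fitted values from -0.32 for CNOT7 to 0.61 for PAN2 (SE 0.23, edgeR FDR = 0.12). Without both polysomal libraries of replicate 3, 17.5% of genes were called, and so were CNOT6 and CNOT7. CNOT6 shifted towards subpolysomal RNA by -0.62 (SE 0.15, FDR = 0.0051), from a mean ratio of 0.35 ± 0.21 to -0.28 ± 0.20 (SD, n = 3 same-number ratios each). CNOT7 shifted the same way by -0.68 (SE 0.17, FDR = 0.008), from -0.39 ± 0.18 to -1.04 ± 0.26. For both mRNAs the 3 control ratios lay above the 3 CNOT1 siRNA ratios. For PAN2, which was not called, the 3 control ratios lay below the 3 CNOT1 siRNA ratios. The share of all genes separated in this way was not determined. For CNOT6L, which rose in both fractions, the shift was 0.21 (SE 0.13, FDR = 0.31) without both libraries and -0.24 as labelled. PAN2 had 0.36 (SE 0.16, FDR = 0.14), with ratios of -0.78 ± 0.12 in control and -0.39 ± 0.18 in CNOT1 siRNA cells. CNOT8, PAN3 and PARN had -0.09, -0.03 and -0.09.

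**Figure D4:**
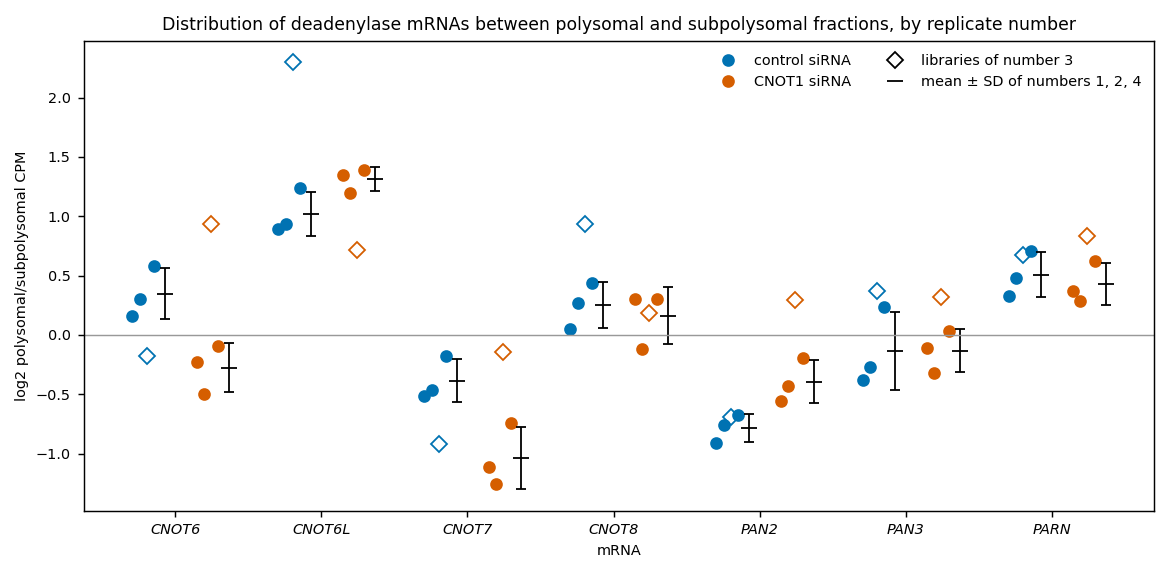
The vertical axis gives the log2 ratio of polysomal to subpolysomal CPM and the horizontal axis the mRNA. Points are ratios of same-numbered libraries with control siRNA (blue) or CNOT1 siRNA (orange), open diamonds are number 3, and black bars give mean ± SD of numbers 1, 2 and 4. CNOT6L and PARN lie above 0 throughout, CNOT7 lies below 0 throughout, and CNOT6 and CNOT7 are lower with CNOT1 siRNA at numbers 1, 2 and 4.

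The TNRC6 experiment asked what happened when the proteins that bring the deadenylases to miRNA targets were reduced. TNRC6A went from 178 and 189 CPM with control siRNA to 40.5 and 64.7, and TNRC6B from 67.6 and 73.1 to 17.7 and 26.3. The log2 fold changes were -1.80 and -1.68, each with an edgeR FDR of 1, so that neither targeted mRNA passed. Both passed with DESeq2 (adjusted p = 0.025 and 0.033) and with the replicate block. Over all 14064 genes tested 0 were called by edgeR (0% of genes, 0 of 7 members), and DESeq2 called 6 higher and 2 lower. At an unadjusted p under 0.05 there were 173 genes above control and 116 below.

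CNOT6L had 46.2 and 66.2 CPM with control siRNA and 68.1 and 73.9 with TNRC6A/B siRNA. Its libraries did not overlap, and the log2 fold change was 0.34 with a 95% interval from -0.34 to 1.02. With n = 2 in each group such a separation can arise without a change, and its share over all genes was not determined. CNOT6 had 117 and 182 CPM against 182 and 204, which overlapped narrowly (0.37, interval -0.34 to 1.08). CNOT7, the third mRNA with match letters for the miRNAs shown above, had 159 and 180 CPM against 163 and 146 (log2 fold change -0.14). The intervals of CNOT6 and CNOT6L hold both no change and a 2-fold rise.
The members without match letters, which have the shorter 3′UTRs, had values that overlapped, as CNOT6 and CNOT7 did. CNOT8 had 52.5 and 66.0 CPM against 52.7 and 61.4, and PAN2 34.6 and 43.5 against 30.2 and 38.1. PAN3 had 37.3 and 58.1 CPM against 45.3 and 54.9, and PARN 70.6 and 65.1 against 73.9 and 65.2. Their log2 fold changes were -0.05, -0.19, 0.07 and 0.04. The members' median was 0.04 and that of all genes -0.03.

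**Figure D5:**
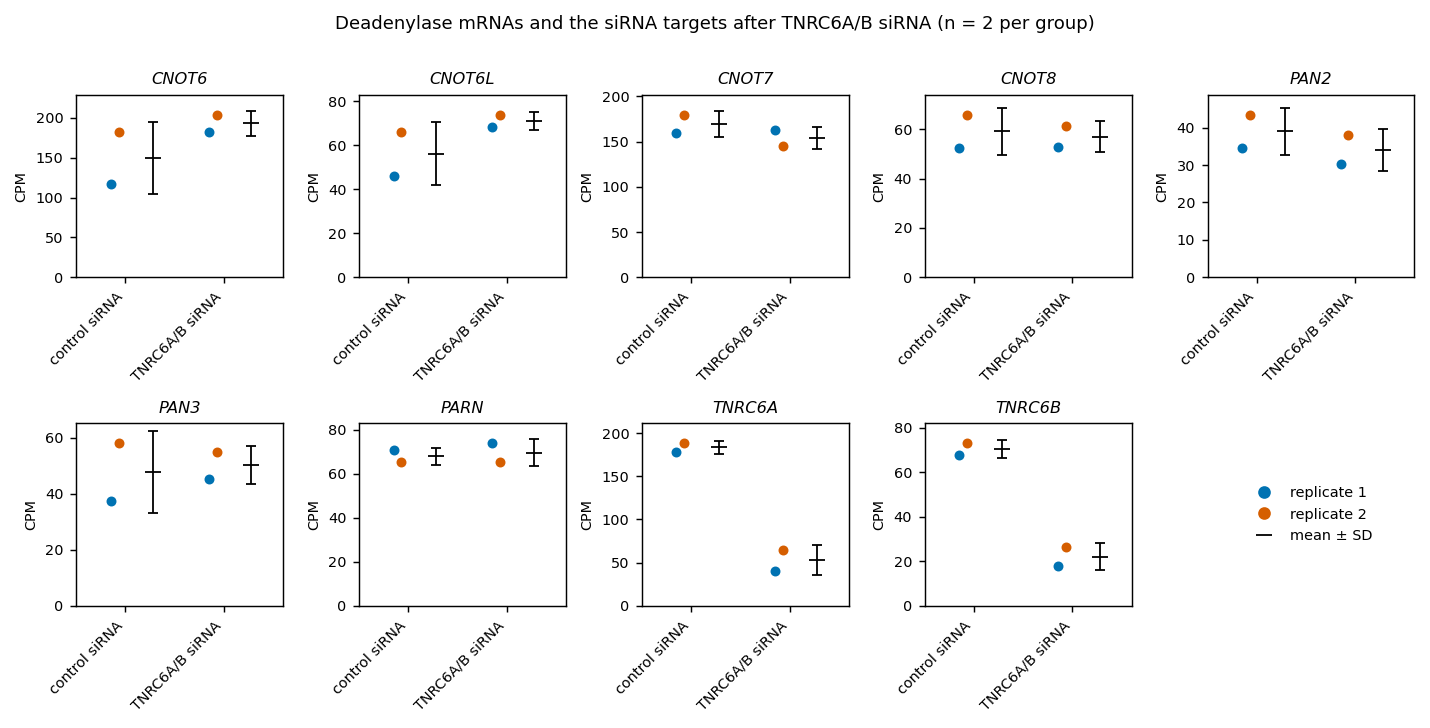
Panels show TNRC6A, TNRC6B and the deadenylase mRNAs, with CPM on the vertical axis (from 0) and control and TNRC6A/B siRNA on the horizontal axis. Points are libraries coloured by replicate number, and black bars give mean ± SD (n = 2). Both targeted mRNAs drop to 52.6 and 22.0 CPM on average, and no deadenylase mRNA was called.

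Genes around these enzymes were described from 3 lists, with no test of the list. Of 8 non-catalytic Ccr4-Not subunits, 5 were lower and 1 higher in the eIF4A1 IP than in total RNA, 4 lower and 1 higher in the eIF4A2 IP, and 4 lower and 1 higher in the DDX6 IP, beside the 26.5%, 25.8% and 23.3% of all genes that were lower. With the replicate block 5 were lower with eIF4A2 and 6 with DDX6, where 31.9% and 30.4% of genes were. The medians of the list were -0.73, -0.42 and -0.41 on the log2 scale, beside 0.04, 0.01 and 0.01 over all genes. CNOT3, a structural subunit of the NOT module, went from 111 ± 25.9 CPM in total RNA to 44.5 ± 20.3 in the eIF4A2 IP (log2 fold change -1.32, edgeR FDR = 0.0092). After CNOT1 siRNA, CNOT1 itself fell in input RNA (log2 fold change -4.08, FDR = 0.0067), and 1 other subunit of the list was higher, where 13.4% of genes were. Without both polysomal libraries of replicate 3 it was 4, where 19.6% of genes were higher. TNKS1BP1, a larger partner of the complex, was more polysomal in control cells, at 18.5 ± 7.74 CPM in subpolysomal and 41.8 ± 13.7 in polysomal RNA (log2 fold change 1.19, FDR = 7.4e-05, and 0.97, FDR = 0.00043, without both). With CNOT1 siRNA the polysomal/subpolysomal log2 fold change was 1.23 for TNKS1BP1 (1.33 without both) and 1.34 for CNOT3 (FDR = 6.1e-07, and 1.49 without both).

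The adapters of the BTG/TOB family, which bind CNOT7 and CNOT8, all 5 tested of 6, were higher in input RNA after CNOT1 siRNA, where 13.4% of genes were, with a median log2 fold change of 0.86 beside -0.03 over all genes. BTG2 went from 41.3 ± 3.90 CPM to 89.3 ± 11.2 (log2 fold change 1.11, edgeR FDR = 0.0067) and TOB2 from 49.7 ± 3.42 to 102 ± 6.31 (1.04, FDR = 0.0067). In polysomal RNA 0 of 5 were called as labelled and 5 were higher without both libraries, where 17.1% of genes were, with BTG2 at 1.18, TOB1 at 1.02 and TOB2 at 1.20. In the IPs 3, 3 and 4 of 5 were higher than in total RNA with eIF4A1, eIF4A2 and DDX6, and 0 lower, beside 26.1%, 24.5% and 22.7% of genes higher. With the replicate block all 5 were higher with eIF4A1, where 32.4% of genes were. BTG2 was highest with DDX6, at 144 ± 9.82 CPM against 69.5 ± 5.40 in total RNA (1.05, FDR = 8.3e-05). Of 6 other annotated deadenylases or their relatives, 1 was higher in input RNA after CNOT1 siRNA, where 13.4% of genes were. In subpolysomal RNA 3 of them fell, where 19.1% of genes did. In polysomal RNA 0 were called as labelled, as was 0% of all genes. Without both libraries 2 were higher there, where 17.1% of genes were, and in input RNA 2 were higher and 1 lower, where 19.6% and 21.1% of genes were. CCRN4L (nocturnin), from that list, had 22.1 ± 1.73 CPM in control and 45.7 ± 5.21 in CNOT1 siRNA polysomes without both libraries (n = 3 each, log2 fold change 1.05, edgeR FDR = 1.1e-06). PNLDC1, a relative of PARN, was near the limit of counting and more subpolysomal in control cells, at 0.547 ± 0.238 CPM against 0.197 ± 0.0567 in polysomal RNA (log2 fold change -1.40, FDR = 0.0016, and -1.30, FDR = 0.0069, without both). After TNRC6A/B siRNA 0 genes of the lists were called. With the replicate block, where 3.7% of genes were called higher, BTG3, TOB2 and TNKS1BP1 were higher. BTG3 went from 46.3 and 69.6 CPM to 119 and 132 (log2 fold change 1.14, edgeR FDR = 1.9e-09 with the block). In that experiment 2 numbers cannot show whether they pair the libraries.

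Among 8157 genes with at least 10 CPM in every group, those with a pattern most like a member were found by Pearson's r of mean log2 CPM over the 12 groups, each experiment centred on its mean. These groups share libraries and controls, so r is a description. For CNOT6 they were NEK7 (0.96) and HINT3 (0.94), for CNOT6L OCLN (0.99) and TMEM43 (0.98), for CNOT7 COX16 and CCDC109B (0.97 each), and for CNOT8 LIMK2 (0.98) and ASB13 (0.97). For PAN2 they were ZNF12 and MAN2C1 (0.95 each), for PAN3 LPIN2 and NUAK1 (0.97 each), and for PARN COPS2 and SEC63 (0.99 each). Without the doubted polysomal libraries NUAK1 came at the sixth place for PAN3 (r = 0.94) and TMEM43 at the fifth for CNOT6L (0.98), COX16 and CCDC109B came next after another gene for CNOT7, and the other genes named held their places. No member was among the closest of another, and between members r ran as low as -0.79, for CNOT6L with CNOT7.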

How the data were processed

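RNA-Seq of HEK293 cells was read from 40 deposited files, each with the authors' counts, whole unnormalised numbers per gene symbol from htseq-count. The submitters' processing notes name bcl2fastq 2.0, TopHat2, HTSeq and hg19, and the libraries were stranded and poly(A)-selected. A further deposited table holds the authors' own comparisons (fold changes, likelihood ratios, p-values and FDR) and was not used. The members and the gene lists were chosen with earlier results of these data known.

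Groups came from the labels. Each experiment was fitted once over all its libraries with edgeR 4.0.16 (limma 3.58.1, data.table at version 1.17.8, R 4.3.3): filterByExpr, normalization by TMM, and two-sided quasi-likelihood F-tests of group means. Calls were made at an FDR (Benjamini-Hochberg, all genes tested) below 0.05. The pipeline was tested on simulated data. The fit was repeated with DESeq2 1.42.0, with RLE in place of TMM, without the filter, and with the compared libraries alone, and further with the replicate number as a block and after omission of each library and of both polysomal libraries of replicate 3. DESeq2 was fitted on the same genes. Counting by symbol can leave out reads that map to several genes.

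Depth per library was 15.4 to 46 M counts (M, mega). Intervals cover the spread between libraries as modelled. Replicate numbers were taken to pair libraries where same-numbered deviations from group means correlated above 0.1 in every pair. This held for RIP (18 of 18 pairs, r from 0.173 to 0.884), input (4 of 4, 0.127 to 0.587) and subpolysomal RNA (4 of 4, 0.749 to 0.869), and not for polysomal RNA (1 of 4, -0.558 to 0.109) or between subpolysomal and polysomal RNA of 1 siRNA (1 of 4 in control cells, 0 of 4 with CNOT1 siRNA). Gene positions, exon lengths and UTRs came from GENCODE 44 on GRCh37, in which all 7 members were found by symbol. Mature miRNAs came from a RefSeq table. Named genes are the members, the siRNA targets, listed genes called with a log2 fold change above 1 in size, and the 2 genes most like each member over the 12 groups.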

Additional observations from a re-analysis of the deposited data

Results flagged for a closer look

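Within groups of 4 libraries, the gap of the highest or lowest library to its neighbour was compared with the group's range (Dixon's test), and 5 of 42 groups stood out, where chance gives about 1 in 20. CNOT6 in control siRNA input replicate 2 had 193 CPM, beside 202 to 203 in the others. In the library labelled CNOT1 siRNA polysomal replicate 3, CNOT6 had 223 CPM (others 105 to 120), CNOT7 182 (others 114 to 124) and CNOT8 74.9 (others 93.1 to 95.5). In the library labelled control siRNA polysomal replicate 3, CNOT6L had 144 CPM (others 68.3 to 72.4). These polysomal libraries are the ones whose CNOT1 counts oppose their labels, and whether labels were exchanged was not tested.

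The recovery with eIF4A2 differed from that with DDX6 by the test of the difference itself for CNOT7 (log2 -0.82), PAN2 (0.88) and PARN (-0.47). The effect of CNOT1 siRNA differed between polysomal and subpolysomal RNA, without both polysomal libraries of replicate 3, for CNOT6 (log2 -0.62) and CNOT7 (-0.68).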

How the results depend on the processing

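The replicate block moved the number of members called from 0 to 1 between eIF4A2 and eIF4A1, from 3 to 5 between eIF4A2 and DDX6, and from 0 to 2 between DDX6 and eIF4A1, where DESeq2 called 1. In the comparisons with total RNA it added PAN2 for eIF4A1 and CNOT7 for DDX6. Without both polysomal libraries of replicate 3, 4 members were called in polysomal RNA after CNOT1 siRNA and 2 in the interaction. With the block as well these were 5 and 3, with PAN2 added in both. There 5 were called between fractions with CNOT1 siRNA, and CNOT6 was added in subpolysomal RNA. Of 17115 genes tested, that setting called 3408 higher and 2904 lower in polysomal RNA, and 2212 and 1693 in the interaction. Between fractions with CNOT1 siRNA it called 6414 genes more polysomal and 6278 more subpolysomal. In subpolysomal RNA it called 3446 higher and 4708 lower. The replicate numbers did not meet the pairing rule for polysomal RNA or between fractions, so blocked counts there show only dependence on the setting. The block alone changed no call of a member in the gradient or TNRC6 experiments. In the TNRC6 experiment, where 2 numbers cannot show pairing, it called 520 genes higher and 243 lower, among them 3 of the lists (BTG3, TOB2 and TNKS1BP1).

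CNOT6 between polysomal and subpolysomal RNA with CNOT1 siRNA reversed, from 0.09 to -0.22 without both libraries and -0.23 with the block as well, and from -0.22 to 0.22 with 1 library left out. PAN2 in polysomal RNA after CNOT1 siRNA ran from -0.31 to 0.13 with 1 library left out. With 1 library left out, members called were 2 to 3 in input RNA (5 with all). They were 1 to 3 in subpolysomal and 0 to 3 in polysomal RNA. In the interaction they were 0 to 1, and between eIF4A2 and DDX6 0 to 3. The shares of all genes called in these fits are not given, so the counts show only dependence on single libraries. For input and subpolysomal RNA these fits kept both polysomal libraries of replicate 3. Single libraries were not left out in the setting without both. Without the library labelled control siRNA polysomal replicate 3 alone, the polysomal count was 3.

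Apart from the omission of single libraries, 302 of the values of single mRNAs in comparisons kept their direction and side of the threshold, 31 passed newly, 5 no longer passed and 2 reversed. RLE factors lost PAN2 in input RNA. Without the filter, CNOT8 in input RNA, CNOT6 with eIF4A2 and PARN with DDX6 and between eIF4A2 and DDX6 were lost, and PAN2 with eIF4A1 and CNOT7 with DDX6 were added. Of 91 pairs of member and comparison, 35 were not called under any alternative. These pairs were left out of the totals of values kept, newly passing, lost or reversed. Among them 21 changed sign in some fit.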
